A study of Mus musculus with 2 samples.

Results

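ZP3AR, MMSAT4 and MurSatRep1 are satellite entries of the mouse genome other than the abundant major and minor satellites of the centromeric regions. They were chosen by name, as 3 of the 952 repeat types in the deposited tables, with earlier results of these data known. All 3 had at least 100 input reads, the minimum set for the analysis. Reads assigned to them were compared between chromatin precipitated with an antibody to the serine 31 phosphorylated form of histone H3.3 (H3.3S31ph) and matched input chromatin, which was sequenced without precipitation. Both groups were wild-type ES cells of the strain 129S1/SvImJ at a passage number below 20, and each group held 1 library that was sequenced in 2 lanes. All cells, those of the input included, had been arrested in 9 µM RO-3306, which blocks the kinase CDK1 and thereby entry into mitosis. The arrest lasted 12 hours, the drug was washed out, and mitotic cells were taken 11 hours after that. The input was described as having no antibody, and the ChIP used 10 µg of a commercial H3.3S31ph antibody. The tables hold repeats only, so neither the ES cell identity nor the mitotic state could be checked against marker genes.

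Satellites are long head-to-tail arrays of a repeated DNA unit. In the mouse, the major satellite (GSAT_MM) builds the heterochromatin beside the centromere and the minor satellite (SYNREP_MM) underlies the centromere itself, while smaller satellite families lie elsewhere. H3.3 is a histone variant placed on chromatin independently of DNA replication, by the chaperone DAXX together with ATRX at telomeres and pericentromeric repeats. Serine 31 distinguishes H3.3 from the canonical H3 histones and is phosphorylated in mitosis. The entries are repeat types and carry no genome positions, so each value sums over all copies of a family.

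The satellites separated into ZP3AR, which was enriched in the precipitate, and the pair MMSAT4 and MurSatRep1, which lay near the typical repeat. The ratio used throughout divides a repeat's share of the summed ChIP reads of all 952 rows by its share of the summed input reads. ZP3AR had a ratio of 1.46 with a 95% interval of 1.41 to 1.52. MMSAT4 had 0.869 (0.842 to 0.897) and MurSatRep1 had 0.827 (0.805 to 0.849). The major satellite GSAT_MM, for comparison, had 0.997 (0.995 to 0.999), and the median of the 704 repeats with at least 100 input reads was 0.805. GSAT_MM held 25.2% of input and 25.1% of ChIP repeat reads, so it had a large part in the totals that set the level of 1. Intervals cover counting error only. With 1 library on each side there was no replicate check, and no test between conditions was made.

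The reads behind these ratios were few beside those of the major satellite. ZP3AR had 4421 ChIP reads and 2063 input reads in lane 1, and 4184 ChIP reads and 2195 input reads in lane 2. It was thus the rarest of the 3 in the input, with 4258 reads over both lanes, while its 8605 ChIP reads did not differ from the 8588 of MMSAT4 beyond counting error. MMSAT4 had 4319 and 4269 ChIP reads in lanes 1 and 2 and 3631 and 3519 input reads, which gave 7150 input reads in all. MurSatRep1 was the most abundant member in both libraries, with 5855 and 5579 ChIP reads and 5099 and 4915 input reads in the lanes. GSAT_MM had 3071381 ChIP and 2229995 input reads over both lanes. All rows together summed to 12235477 ChIP reads and 8856751 input reads, and each lane held close to equal parts of both.

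As a share of all repeat reads, ZP3AR went from 0.0481% of the input (0.0466 to 0.0495) to 0.0703% of the ChIP (0.0689 to 0.0718). The shares of the other two went the opposite way. MMSAT4 went from 0.0807% (0.0789 to 0.0826) to 0.0702% (0.0687 to 0.0717), and MurSatRep1 from 0.113% (0.111 to 0.115) to 0.0934% (0.0917 to 0.0952). For none of the 3 did the exact binomial intervals of the ChIP and the input overlap. Among the reads of the 3 members alone, ZP3AR made up 19.9% in the input and 30.1% in the ChIP. At its input share ZP3AR would have had 5882 ChIP reads, so 2723 of its 8605 reads lay above that level. MMSAT4 lay 1290 reads below its own corresponding level of 9878, and MurSatRep1 2400 reads below 13834. The sign of these differences for MMSAT4 and MurSatRep1 turned with the scale. At the level set by the median repeat, ZP3AR lay 3870 reads above it, MMSAT4 638 reads above it and MurSatRep1 299 reads above it.

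**Figure D1:**
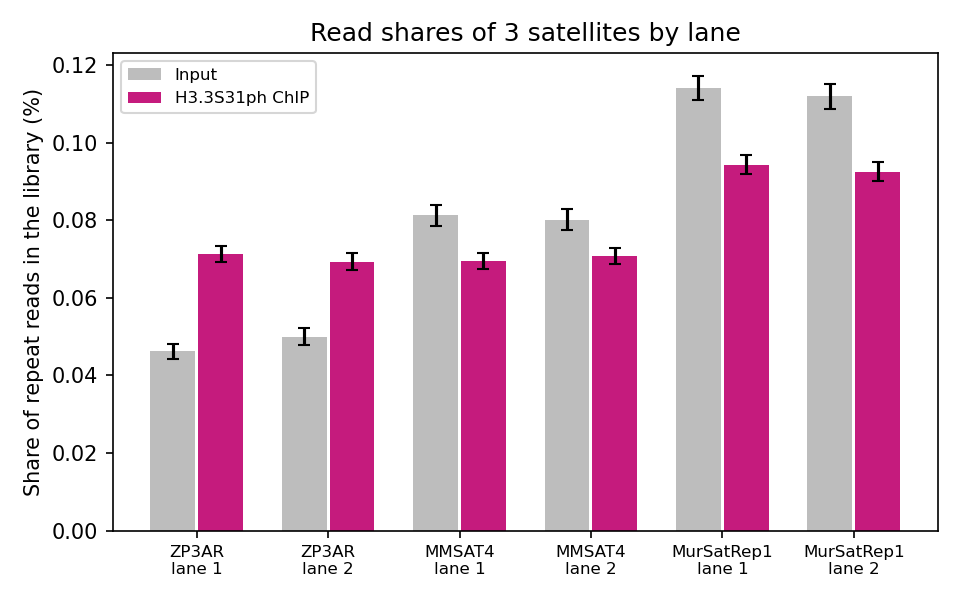
Bars give the share of all repeat reads in each library (percent, y axis) for the 3 satellites in each sequencing lane, grey for the input and magenta for the H3.3S31ph ChIP, with error bars for the 95% exact binomial interval of counting error. The ChIP bar is the taller one for ZP3AR in both lanes and the shorter one for MMSAT4 and MurSatRep1 in both lanes.

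Pooling the 3 members hid this split. Together they held 0.242% of input reads and 0.234% of ChIP reads, a pooled ratio of 0.967 (0.950 to 0.985). Without ZP3AR the pooled ratio was 0.844 (0.827 to 0.862), without MMSAT4 it was 1.02 (0.995 to 1.04) and without MurSatRep1 it was 1.09 (1.07 to 1.12). The side of 1 on which the pooled value lay thus depended on the member left out, with all reads in the tables as the base, and without MMSAT4 the interval included 1. With the median repeat set to 1 the pooled values were all above 1, at 1.2 for the 3 members, 1.05 without ZP3AR, 1.26 without MMSAT4 and 1.36 without MurSatRep1. The pool was small next to the centromeric entries, which held 26.8% of input and 27.0% of ChIP repeat reads.

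Compared with each other, ZP3AR stood apart from both other members while these differed little. The following folds are ratios of ChIP over input reads between repeats of the same libraries, so the scale between the libraries cancels. ZP3AR was 1.68-fold higher than MMSAT4 (1.60 to 1.77), with 1.80-fold (1.68 to 1.93) in lane 1 and 1.57-fold (1.47 to 1.68) in lane 2. It was 1.77-fold higher than MurSatRep1 (1.69 to 1.85), with 1.87-fold (1.75 to 1.99) in lane 1 and 1.68-fold (1.57 to 1.79) in lane 2. In both lanes the lower bounds of these folds stayed well above 1. MMSAT4 was 1.05-fold higher than MurSatRep1 (1.01 to 1.10). That difference was at the limit of the depth, since its interval included 1 in lane 1, at 1.04 (0.977 to 1.10), and excluded it in lane 2, at 1.07 (1.01 to 1.13).

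Against the major satellite, ZP3AR was higher and both others were lower. ZP3AR was 1.47-fold higher than GSAT_MM (1.41 to 1.52), with 1.55-fold in lane 1 and 1.39-fold in lane 2. MMSAT4 stood at 0.872 of GSAT_MM (0.845 to 0.900), with 0.858 and 0.887 in lanes 1 and 2. MurSatRep1 stood at 0.829 of GSAT_MM (0.807 to 0.852), with 0.828 and 0.830 in the lanes. An interval above GSAT_MM was found for 7.82% of the 703 other repeats with at least 100 input reads, and an interval below it for 79.2%. ZP3AR thus fell in the smaller class, and MMSAT4 and MurSatRep1 in the class that holds most repeats. Against the minor satellite SYNREP_MM, ZP3AR was 1.27-fold higher (1.22 to 1.32), while MMSAT4 stood at 0.754 (0.730 to 0.779) and MurSatRep1 at 0.717 (0.698 to 0.737).

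Of the other entries with a satellite name, CENSAT_MC had 1 ChIP read and 2 input reads and allowed no comparison. MurSAT1, with 1616 ChIP and 1829 input reads, had a ratio of 0.640 (0.598 to 0.684), lower than that of any member. Relative to MurSAT1, ZP3AR was 2.29-fold higher (2.12 to 2.47), MMSAT4 1.36-fold higher (1.26 to 1.46) and MurSatRep1 1.29-fold higher (1.20 to 1.39). The order of the satellite entries with at least 100 input reads was therefore ZP3AR, SYNREP_MM, GSAT_MM, MMSAT4, MurSatRep1 and MurSAT1. Of the neighbours in that order, MMSAT4 and MurSatRep1 lay closest together, and theirs was the only neighbouring pair whose ratio intervals overlapped.

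Relative to the median repeat, no member lay below it by more than counting error. ZP3AR was 1.82-fold above it (1.75 to 1.89). MMSAT4 was 1.08-fold above it (1.05 to 1.11), and MurSatRep1, at 1.03-fold (1.00 to 1.05), was not separable from it. The major satellite GSAT_MM was 1.24-fold above the median repeat (1.237 to 1.241). An interval above the median repeat was found for 2 of the 3 members, against 27.3% of all 704 repeats, and one below it for 0 members, against 19.2%. A limit of size was also set, at which the lower of the repeat and the median repeat stands at 0.8 of the higher or less. Only ZP3AR among the 3 lay that far above the median repeat, against 11.1% of all repeats, and 0 members lay that far below it, against 2.41%. Against the input level itself, 1 member had an interval above 1, where 7.81% of all repeats did, and 2 had one below 1, where 79.5% did. The values of MMSAT4 and MurSatRep1 below 1 are therefore those of most repeats in the tables.

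In the order of all 704 repeats, ZP3AR held rank 15 from the top, GSAT_MM rank 85, MMSAT4 rank 176 and MurSatRep1 rank 262. These ranks correspond to percentiles of 98.0 for ZP3AR, 88.1 for GSAT_MM, 75.1 for MMSAT4 and 62.9 for MurSatRep1. Given counting error on both sides, 12 repeats were separably higher than ZP3AR, 681 were separably lower and 10 were not separable from it. For MMSAT4, 118 were higher, 319 lower and 266 not separable. For MurSatRep1, 152 were higher, 186 lower and 365 not separable. Counting error thus left only 10 entries not separable from ZP3AR, whereas MMSAT4 and MurSatRep1 could not be told from 266 and 365 other entries. These counts describe this ChIP and input library and hold no spread between libraries. The quartiles of the 704 ratios were 0.761 and 0.869. MurSatRep1 lay between them and MMSAT4 at the upper one.

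**Figure D2:**
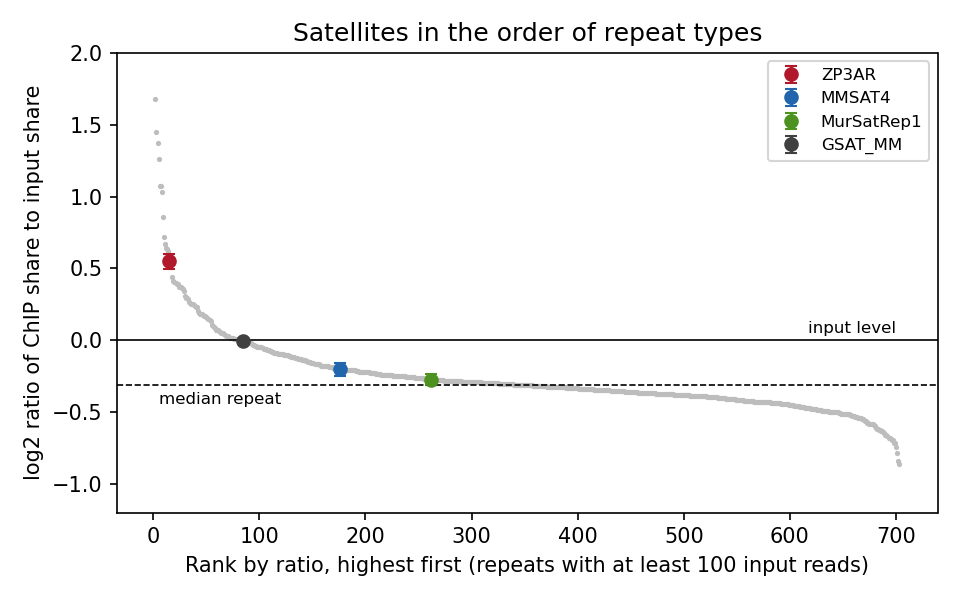
The log2 ratio of ChIP share to input share (y axis) is plotted against the rank of each of the 704 repeats with at least 100 input reads (x axis, grey points), with the 3 satellites and GSAT_MM coloured and bars for the 95% interval of counting error. ZP3AR sits on the steep left end of the curve at rank 15, MMSAT4 and MurSatRep1 on the flat part between the input level (solid line) and the median repeat (dashed line), and 2 repeats lie outside the y axis.

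The entries closest to ZP3AR in ratio were long terminal repeats (LTRs) or internal sequences of endogenous retroviruses, judged by their names. The share of such entries among all repeats was not counted. LTR entries also stood next to MurSatRep1, so such neighbours were not particular to ZP3AR. Likeness was measured as the difference of log2 ratios among the 406 repeats with at least 1000 input reads, from this ChIP and input library alone. Directly above ZP3AR stood RLTR6-int with a ratio of 1.54 (1.52 to 1.56) and LTRIS2 with 1.55 (1.51 to 1.60), both separably higher. Directly below it stood ERVB7_1-LTR_MM with 1.45 (1.37 to 1.53) and RLTR1 with 1.36 (1.27 to 1.45), neither of them separable from ZP3AR. In all 11 of these 406 entries were higher than ZP3AR. They were the telomeric (CCCTAA)n at 14.4, the 6 entries IAPLTR1a_Mm, IAPEz-int, IAPLTR1_Mm, IAPLTR2_Mm, IAPLTR2a and IAPLTR2b of the intracisternal A particle family of endogenous retroviruses at 1.81 to 3.20, the simple repeat (CACAG)n at 2.39, and RLTR1B, LTRIS2 and RLTR6-int at 1.54 to 1.56. No other satellite entry was among them, and RLTR1B, (CACAG)n and the IAP entries are named here after their values were seen.

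The neighbours of MMSAT4 were of mixed kinds, while those of MurSatRep1 were LTR entries, judged by their names. MIR3 at 0.875 and MIRc at 0.871, 2 old short interspersed elements, stood directly above MMSAT4, and RLTR9A2 and the simple repeat (TGGA)n, both at 0.869, directly below it. RLTR12B at 0.828 and LTR33A_ at 0.827 stood directly above MurSatRep1, and ORR1C2 and RLTR13C1, both at 0.826, directly below it. None of these 8 differed from its satellite beyond counting error, and the largest of their log2 differences was 0.0088. They were picked as nearest in ratio, so small differences were built in and show no particular likeness. Among all 704 repeats, 266 were not separable from MMSAT4 and 365 not from MurSatRep1.

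Entries of like abundance showed what the depth could resolve. The repeats nearest to ZP3AR in input reads were (TGGA)n with 4318 reads and a ratio of 0.869, LTRIS_Mus with 4283 and 1.02, HAL1-3A_ME with 4243 and 0.821, and ID2 with 4172 and 0.907. ZP3AR was separably higher than each of the 4, by log2 differences of 0.52 to 0.83. Near MMSAT4, which lay at 7150 input reads, RLTR13B1 at 0.857 and RLTR33 at 0.853 were not separable from it, BGLII_B at 0.805 was lower and LTRIS2 at 1.55 was higher. Near MurSatRep1, at 10014 input reads, MER20 at 0.810 was not separable from it, MamRep1527 at 0.738 and HAL1 at 0.785 were lower, and RLTR10 at 1.17 was higher.

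The lanes, which are runs of the same libraries, gave ZP3AR different ratios, at 1.54 (1.46 to 1.63) in lane 1 and 1.39 (1.32 to 1.46) in lane 2. On the log2 scale the lanes differed by 0.15 (0.047 to 0.26). The difference of the lanes was -0.044 (-0.13 to 0.046) for MMSAT4, whose ratios were 0.856 and 0.883, and 0.00086 (-0.077 to 0.078) for MurSatRep1, whose ratios were 0.827 and 0.826. A lane difference with an interval that excluded 0 was found for 5.67% of the 406 repeats with at least 1000 input reads, ZP3AR among them. That is close to the part of repeats that 95% intervals miss by counting error alone. By size, the lane difference of ZP3AR ranked 24 of these 406. The median size of the lane difference was 0.035 over these 406. Of the 222 repeats with at least as many input reads as ZP3AR, 0 had a larger lane difference. Whether a difference of this size exceeds what counting error gives among 222 repeats was not tested. The larger part of the shift lay in the input. Between lane 1 and lane 2 the log2 share of ZP3AR differed by -0.11 in the input and by 0.038 in the ChIP. Lane 1 held 48.4% of the ZP3AR input reads (46.9 to 50.0), against 50.4% for the input reads of all rows. It held 51.4% of the ZP3AR ChIP reads (50.3 to 52.4), against 50.7% for all rows, which the interval included. ZP3AR ranked 10 of 406 in lane 1 and 13 in lane 2, so its place near the top of the order did not rest on 1 lane. MMSAT4 ranked 123 and 104, and MurSatRep1 174 and 170.

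**Figure D3:**
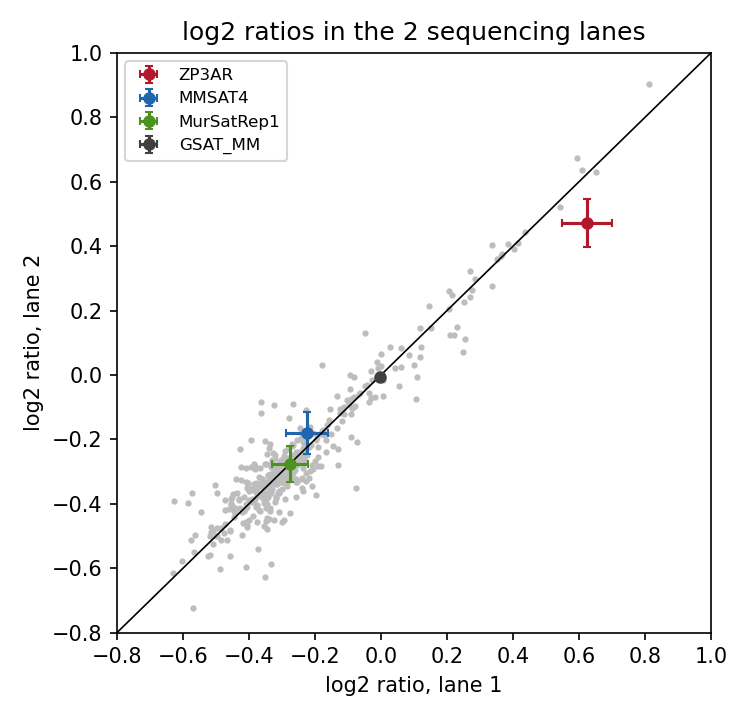
The log2 ratio in lane 2 (y axis) is plotted against that in lane 1 (x axis) for the repeats with at least 1000 input reads (grey), with the 3 satellites and GSAT_MM coloured, bars for 95% intervals of counting error and a line of equality. ZP3AR lies below the line at 0.63 and 0.47, MurSatRep1 and GSAT_MM lie on it, and 7 repeats fall outside the axes.

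The authors' deposited table gives log2 ratios on a different scale between the libraries. In it, the authors' deposited table lists ZP3AR at 0.794 (0.731 to 0.857) in lane 1 and at 0.641 (0.578 to 0.703) in lane 2. MMSAT4 is listed in the authors' deposited table at -0.055 (-0.109 to -0.002) in lane 1 and at -0.011 (-0.065 to 0.043) in lane 2, so its conservative value is -0.002 in the first and 0 in the second. MurSatRep1 is listed in the authors' deposited table at -0.106 and -0.107, with a conservative value of -0.061 in both lanes. GSAT_MM is listed in the authors' deposited table at 0.166 and 0.162, above MMSAT4 and MurSatRep1 and below ZP3AR.

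The sign of the log2 ratio of ZP3AR held under every scale tried, while those of MMSAT4 and MurSatRep1 did not. With all reads in the tables as the base, the log2 ratios were 0.55 for ZP3AR, -0.20 for MMSAT4 and -0.27 for MurSatRep1. With the median repeat set to 1 they were 0.86, 0.11 and 0.038, the last of them within counting error of the median repeat. The telomeric entry took 8.38% of ChIP reads and 0.584% of input reads, and leaving it out of the totals raised every log2 ratio by 0.12, to 0.67, -0.084 and -0.16. The order of ZP3AR, MMSAT4 and MurSatRep1 is the same under all these scales by construction, because a scale adds 1 constant to all log2 ratios.

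**Figure D4:**
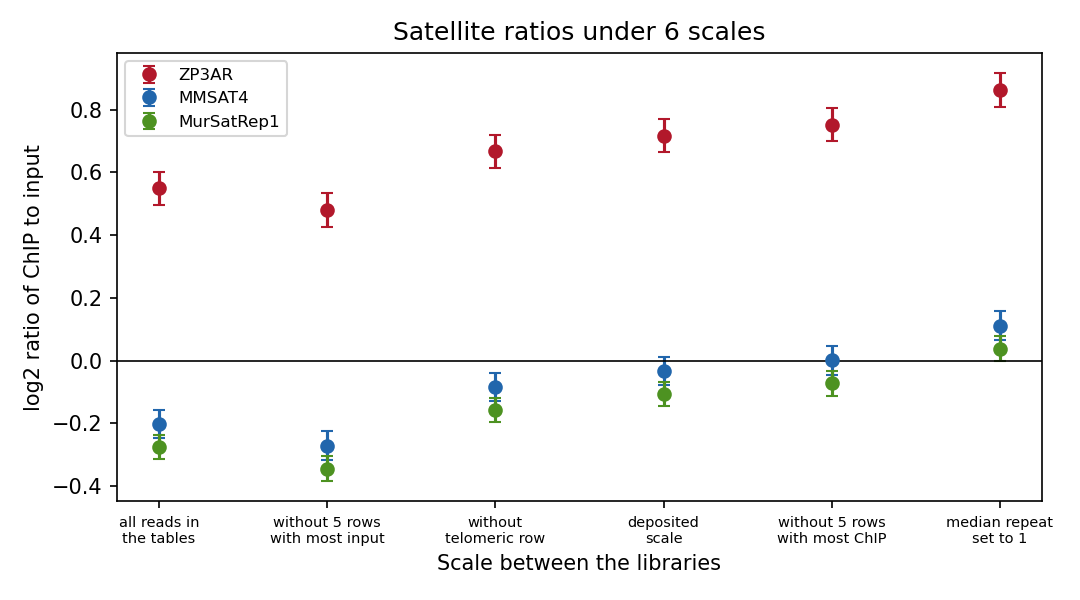
The log2 ratio of ChIP to input (y axis) of the 3 satellites is shown under 6 scales between the libraries (x axis), with bars for the 95% interval of counting error of the reads summed over lanes. ZP3AR lies between 0.48 and 0.86 throughout, while MMSAT4 and MurSatRep1 lie below 0 with all reads as the base and above 0 with the median repeat set to 1.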

How the data were processed

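H3.3S31ph ChIP and input reads of mitotic mouse ES cells were taken as raw read counts per repeat type, which the authors deposited in 1 table for each of 2 sequencing lanes. Per the submitters' processing notes, Bowtie 1.0.0 and the build mm9 were used. The assignment of reads that match several repeat types or copies, and the treatment of duplicates, are not given in the sources used here, so a read of related satellites could be counted under either entry. Per the labels' protocols, chromatin was fixed with 0.4% formaldehyde, sheared to about 300 bp, amplified for 10 cycles and read as single reads of 50 bp. The deposited log2 ratios equal the log2 of the counts, each with 0.5 added, minus 1 constant per lane (0.31 and 0.29), tested on the values.

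Lanes were summed as runs of 1 library per group. Ratios of shares have 95% exact conditional (Clopper-Pearson) intervals, and shares have exact binomial ones. Differences between a member and a named repeat have exact conditional intervals of the count table. Counts of repeats separable from a member or from GSAT_MM, and lane differences, used a normal interval of the log ratio. All intervals cover counting error only, since each group held 1 library. They treat reads as independent, which PCR reads without molecular identifiers are not, so they may be too narrow even for counting error. A minimum of 100 input reads, lanes summed, left 704 of 952 repeats. The named entries were the members, the centromeric, telomeric and satellite-named rows, and the 2 nearest repeats on each side in ratio and in input reads among repeats with at least 1000 input reads. Computation used Python 3.11.15, numpy, pandas and scipy 1.17.1. The interval computation was tested on simulated counts drawn independently, which checks the computation and cannot show the effect of PCR copies. Alternatives were each lane alone, other scales, other read minimums and 1 added read. The members and lists were chosen with earlier results of these data known.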

Additional observations from a re-analysis of the deposited data

How the results depend on the processing

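Across 72 combinations of result and alternative, 44 stayed within the interval of counting error and 25 moved outside it without a change of direction. The other 3 reversed, which means a change of sign alone. The 44 include every outcome of 1 added read, which could hardly move rows of this depth and so says little about stability. The scale moved the log2 ratio to input most. For ZP3AR, MMSAT4 and MurSatRep1 in this order, it was 0.86, 0.11 and 0.038 with the median repeat set to 1, 0.48, -0.27 and -0.34 without the 5 rows with the most input reads, and 0.72, -0.033 and -0.11 on the deposited scale. Chosen after seeing the data, it was 0.67, -0.084 and -0.16 without the telomeric row, and 0.75, 0.00081 and -0.072 without the 5 rows with the most ChIP reads. MMSAT4 and MurSatRep1 reversed with the median repeat set to 1, and MMSAT4 also without the 5 rows with the most ChIP reads. Only the 0.11 of MMSAT4 exceeded counting error after the change of sign. The 0.038 of MurSatRep1 and the 0.00081 of MMSAT4 did not. These shifts follow from the scale, which adds 1 constant to all log2 ratios. In lanes 1 and 2 alone, the log2 ratio of ZP3AR was 0.63 and 0.47 to input, 0.94 and 0.78 to the median repeat, 0.63 and 0.48 to GSAT_MM, 0.85 and 0.65 to MMSAT4, and 0.90 and 0.75 to MurSatRep1. Whether the lane difference of ZP3AR exceeds what counting error gives among many repeats was not tested, nor was its cause. The percentile of ZP3AR was 98.3 in lane 1, 97.3 with at least 1000 input reads and 96.2 with no read minimum. No paired analysis was possible because each group holds 1 library. Depth limited the comparison of MMSAT4 with MurSatRep1, and the single library per group leaves the spread between cultures unmeasured.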
